A study of Mus musculus with 24 samples.

Results

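Cyclic nucleotide phosphodiesterases were followed in RNA from the striatum of 24 mice. The members were 10 genes, Pde10a, Pde1a, Pde1b, Pde1c, Pde2a, Pde4b, Pde4d, Pde7b, Pde8b and Pde9a, found by symbol among the 54532 genes of the read-count table. Each had a row of its own, and all 10 passed the filter on low counts that left 19667 genes for testing. The table also held 14 other genes named as phosphodiesterases or their subunits (Pde6d, Pde6g and Pde6h included), of which 12 passed. All 24 are called phosphodiesterase genes below by symbol alone.

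The animals were C57BL/6 mice of 4 genotypes, 6 animals each (3 male, 3 female), and each gave 1 library from the striatum of a single hemisphere. WT mice carried neither allele. Tyrobp-KO mice (TyrobpKO below) lacked Tyrobp, which encodes an adaptor of microglial receptors. Q175 mice were labelled heterozygous for Q175, a knock-in that places an expanded CAG repeat in the mouse Huntingtin gene Htt and serves as a model of Huntington's disease. Q175_TyrobpKO mice were Q175 heterozygotes that also lacked Tyrobp. Because the repeat sits in the animal's own Htt gene, it is carried by every cell type, and the labels restrict the Tyrobp deletion to no cell type. Age was not stated. Nothing in the labels says how the animals were distributed over litters, so p-values measure the spread between these 24 animals.

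Phosphodiesterases hydrolyse cAMP and cGMP and so end the signals that cyclases start. In the striatum, dopamine and adenosine receptors set cAMP in the projection neurons, the cell type that degenerates earliest in Huntington's disease. Pde10a and Pde1b are enriched in these neurons. Families differ in substrate: the Pde4, Pde7 and Pde8 enzymes cleave cAMP, Pde9a cleaves cGMP, and Pde1, Pde2 and Pde10 enzymes cleave both.

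Promoter sequence is shown for the 5 members that passed the test in Q175 against WT, because 4 of them fell and 3 of those also moved together from animal to animal. RefSeq (build GRCm38.p6) gave windows of 300 bases, 250 before and 50 after an annotated start, for 9 of the 10 members, 28 windows in all; Pde9a was not among them. For each gene the window with the most CpG dinucleotides is printed 5′ to 3′ on the gene's strand, with the GC box (GGGCGG, or CCGCCC on the other strand) in capitals. The Pde10a window is chr17:8801495-8801794 (+), that of Pde1b chr15:103502784-103503083 (+), that of Pde7b chr10:20548279-20548578 (-), that of Pde8b chr13:95223001-95223300 (-) and that of Pde4d chr13:108653927-108654226 (+).
Pde10a: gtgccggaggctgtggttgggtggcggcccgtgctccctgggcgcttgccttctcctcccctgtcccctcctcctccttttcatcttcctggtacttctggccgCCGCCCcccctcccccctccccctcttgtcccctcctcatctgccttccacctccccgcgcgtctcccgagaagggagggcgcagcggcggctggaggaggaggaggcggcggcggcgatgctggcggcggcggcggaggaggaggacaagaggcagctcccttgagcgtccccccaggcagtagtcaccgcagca
Pde1b: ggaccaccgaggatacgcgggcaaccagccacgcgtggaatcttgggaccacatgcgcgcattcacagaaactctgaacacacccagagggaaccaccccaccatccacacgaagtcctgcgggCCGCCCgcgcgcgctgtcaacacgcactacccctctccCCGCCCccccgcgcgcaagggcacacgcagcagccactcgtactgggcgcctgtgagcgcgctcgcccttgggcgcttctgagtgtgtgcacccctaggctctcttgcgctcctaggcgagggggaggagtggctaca
Pde7b: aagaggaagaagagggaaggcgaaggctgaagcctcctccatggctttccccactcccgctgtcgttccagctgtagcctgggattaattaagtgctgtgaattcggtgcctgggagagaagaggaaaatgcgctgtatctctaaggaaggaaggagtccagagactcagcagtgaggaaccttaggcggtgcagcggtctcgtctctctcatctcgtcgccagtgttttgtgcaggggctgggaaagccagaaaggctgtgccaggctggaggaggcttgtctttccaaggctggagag
Pde8b: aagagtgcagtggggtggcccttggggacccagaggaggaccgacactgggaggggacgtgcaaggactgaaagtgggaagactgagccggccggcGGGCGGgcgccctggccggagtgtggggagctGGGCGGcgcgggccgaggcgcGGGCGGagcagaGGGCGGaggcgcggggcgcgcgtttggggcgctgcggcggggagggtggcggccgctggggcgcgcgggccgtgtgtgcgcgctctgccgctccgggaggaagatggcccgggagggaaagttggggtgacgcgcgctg
Pde4d: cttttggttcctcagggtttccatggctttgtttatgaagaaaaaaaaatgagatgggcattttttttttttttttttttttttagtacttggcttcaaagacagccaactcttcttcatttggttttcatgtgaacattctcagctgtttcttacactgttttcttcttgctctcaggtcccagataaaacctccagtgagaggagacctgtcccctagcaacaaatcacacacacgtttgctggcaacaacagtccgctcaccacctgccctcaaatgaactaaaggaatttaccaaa
The Pde8b window held 38 CpG dinucleotides and 4 GC boxes, that of Pde1b 28 and 2, and that of Pde10a 23 and 1. The sole windows of Pde7b and Pde4d held 10 and 2 CpG dinucleotides and no GC box. The median over all 32851 windows in the table was 7 CpG dinucleotides. The printed windows were picked for the most CpG dinucleotides, which favours counts above this median. The windows not printed held 5 for Pde10a, 1 and 2 for Pde1b and 9 to 37 for Pde8b.

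Motifs were searched on both strands of the 28 windows. The full cAMP response element TGACGTCA was in 0 of them, against 1.79% of all windows. Its core TGACG, which lies inside the full element, was in 4 (20.8% of all windows), including the printed Pde8b window. The GC box was in 6 (35.7%), CCAAT in 10 (37.4%), TATAAA in 3 (13.6%) and the AP-1 motif TGANTCA in 1 (7.81%). Some windows of a gene overlap, as for Pde8b, so a site can be counted more than once. These are matches of letters only. The counts were summed per gene, so they do not say which of several starts was used.

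Total counts were 25.5 to 34.6 M per library. The genotype labels were checked at the genes they name: Tyrobp was at 5.69 to 11.8 CPM (TMM-scaled counts per megacount of the library) in the 12 libraries with the gene and 0.214 to 0.448 CPM in the 12 labelled as lacking it, without overlap. Htt was at 209 to 233 CPM in WT and 137 to 177 CPM in Q175. The 20 striatal projection neuron markers, led by Scn4b and Adcy5, were all read in every genotype. Their summed CPM was 9161 to 14251 for WT animals, 8573 to 13767 for TyrobpKO, 6682 to 9133 for Q175 and 5884 to 9250 for Q175_TyrobpKO. The sum of 12 cortical excitatory neuron markers, led by Slc17a7 and Lamp5, varied widely inside every genotype, with 204 to 926 CPM (WT), 574 to 1163 (TyrobpKO), 192 to 964 (Q175) and 184 to 1079 (Q175_TyrobpKO). Choroid plexus markers summed to 4275 CPM in Q175 replicate 3 and to 27.7 to 619 CPM in the other 23 libraries. Animal numbers in the labels carry prefixes of unstated meaning. Both genotypes without Tyrobp share a prefix that no other animal has, and the Q175 animals share theirs with WT replicate 3 only, so prefix and genotype cannot be told apart in Q175 against WT or in either Tyrobp comparison.

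Levels were compared between genes as CPM per kilobase of gene. In WT, Pde1b was highest at 270 ± 39.8 (SD, n = 6), followed by Pde10a at 170 ± 33.4, and their libraries overlapped. Both stood clear of Pde7b (26.5 ± 5.10) and Pde8b (24.1 ± 1.87), which overlapped each other. Pde4b (17.2 ± 1.35) and Pde1a (13.3 ± 4.85) came next, then Pde9a (5.57 ± 0.885), whose libraries overlapped those of Pde1a and not those of Pde4d below it. Pde4d (3.07 ± 0.501), Pde1c (2.71 ± 0.374) and Pde2a (2.54 ± 0.895) closed the order, with neighbours overlapping. The last place of Pde2a is uncertain, because 64.3% of its exon bases are shared with another gene on the same strand. If reads there were not counted, its level per kilobase is too low. In Q175 and Q175_TyrobpKO the libraries of Pde1b and Pde10a no longer overlapped, with Pde1b at 169 ± 20.6 and Pde10a at 89.4 ± 10.4 CPM per kilobase in Q175.

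**Figure D1:**
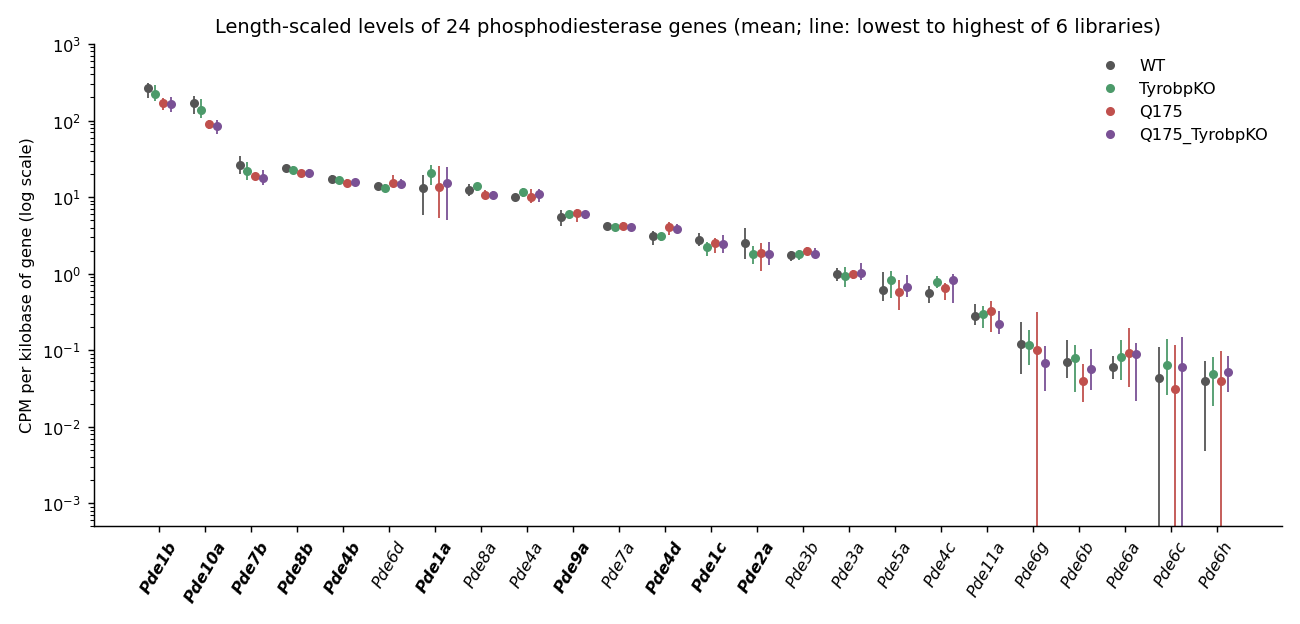
Mean CPM per kilobase of 24 phosphodiesterase genes on a log axis in 4 genotypes, with lines from the lowest to the highest of 6 libraries; members are in bold, and lines that reach the bottom mark a library with no read. Pde1b and Pde10a lay above all other genes, from 270 and 170 in WT to 164 and 84.2 in Q175_TyrobpKO.

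The summed level of the 24 genes was 580 ± 73.4 CPM per kilobase among WT libraries, 501 ± 73.6 for TyrobpKO, 387 ± 25.2 for Q175 and 377 ± 42.8 for Q175_TyrobpKO. Pde10a made up 29.1% ± 2.35 of that sum in WT and 23.1% ± 1.42 in Q175, and the highest Q175 share (24.5%) lay below the lowest WT share (27.0%). Pde1b made up 46.4% ± 2.20 in WT and 43.6% ± 3.24 in Q175, with overlap. The share of Pde4d was 0.540% ± 0.140 in WT and 1.05% ± 0.162 in Q175, again without overlap (0.802% at most in WT, 0.848% at least in Q175). Shares sum to a whole, so a lower share of a large gene raises those of the others.

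In Q175 against WT, the comparison of the Q175 allele in animals with Tyrobp, 5 of the 10 members passed an adjusted p under 0.05. Pde10a, Pde1b, Pde7b and Pde8b were lower (4 of 10, against 5.47% of all genes tested) and Pde4d was higher (1 of 10, against 4.15%). The members were chosen with earlier results of these data known. Here and below, a count above the share of all genes is therefore no test of the family. The median log2 fold change was -0.19 over the members and 0.0073 over all 19667 genes. In bulk tissue, fewer cells of a type and less RNA per cell cannot be told apart.

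Pde10a (ENSMUSG00000023868, chr17:8525372-8986648, + strand; coordinates as in the deposited table, which match GRCm38) is the dual-substrate enzyme of striatal projection neurons. It had 1565 CPM in its lowest WT library, a median of 2173 and 2661 in its highest. In Q175 the lowest library was at 1008 CPM, the median at 1151 and the highest at 1299. All 6 Q175 libraries lay below all 6 WT libraries; a complete separation of this kind in the lower direction was met by 2.39% of genes tested, and in the higher direction by 1.69%. Pde10a was the only member with such a separation in this comparison. It fell by 47.6%, a log2 fold change of -0.93 ± 0.15 (SE), with an adjusted p = 0.000254 (Benjamini-Hochberg) in the quasi-likelihood test of edgeR.

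Pde1b (ENSMUSG00000022489, chr15:103503034-103530052, +), a calcium- and calmodulin-dependent enzyme, ranged from 1047 through a median of 1541 to 1646 CPM in WT. In Q175 it ranged from 748 through 895 to 1066 CPM. Of the 6 Q175 libraries, 5 lay below every WT library, and the remaining one lay above WT replicate 5 alone. Pde1b fell by 37.4% (log2 fold change -0.68 ± 0.13, edgeR adjusted p = 0.00189).

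Pde7b (ENSMUSG00000019990, chr10:20398004-20725078, -), a cAMP-specific enzyme that is also strong in striatum, was at 250.2 CPM in its lowest WT library, 318 at the median and 423 at the highest. The Q175 libraries lay between 209 and 256 CPM around a median of 232, and 5 of them were below all of WT. The fall was 29.7% in the mean, or -0.51 ± 0.13 as log2 fold change, at an adjusted p of 0.0146 in edgeR. Pde8b (ENSMUSG00000021684, chr13:95024454-95250336, -), a cAMP-specific enzyme of high affinity, had 131 CPM at the lowest, 138 at the median and 156 at the highest in WT, and 118, 120.4 and 132 in Q175. Here too 5 of 6 Q175 libraries were below WT, and the difference was small (log2 fold change -0.22 ± 0.06, edgeR adjusted p = 0.0149). Of the exon bases of Pde8b, 7.60% are shared with the antisense gene Gm48420, and use of strand in counting is not given in the sources used here.

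Pde4d (ENSMUSG00000021699, chr13:108449948-109953461, +), a cAMP-specific enzyme of the rolipram-sensitive family, was the member that rose. Its WT libraries ran from 28.1 through a median of 36.2 to 43.7 CPM, and its Q175 libraries from 38.5 through 49.7 to 56.0 CPM. All but 1 Q175 library exceeded all of WT. In log2 terms the rise was 0.39 ± 0.09, with an adjusted p of 0.00602 in edgeR. Its relative Pde4b (ENSMUSG00000028525, chr4:102087543-102607259, +), at 164 to 206 CPM in WT and 148 to 179.6 in Q175, differed by -0.16 ± 0.06 on that scale and missed the threshold (adjusted p = 0.104 in edgeR).

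The other 4 members did not pass. Pde2a (ENSMUSG00000110195, chr7:101421691-101512827, +), the cGMP-stimulated enzyme, had 9.50 to 23.99 CPM in WT and 6.67 to 15.6 in Q175 (log2 fold change -0.46 ± 0.23, edgeR adjusted p = 0.241). Its value is uncertain, since 64.3% of its exon bases are shared with Gm45837 on the same strand, a gene listed with 28 reads over all 24 libraries, and how reads in shared bases were assigned is not given in the sources used here. Pde1c (ENSMUSG00000004347, chr6:56069804-56569103, -), a calmodulin-dependent enzyme, had 45.5 to 68.1 CPM in WT and 37.0 to 58.3 in Q175 (log2 fold change -0.09 ± 0.13). Pde9a (ENSMUSG00000041119, chr17:31386234-31476310, +), the cGMP-specific enzyme, had a median of 15.6 CPM in WT and 18.4 in Q175, with overlap (0.14 ± 0.10). In the GENCODE M21 annotation 8.34% of its exon bases are shared with antisense genes. The deposited span and length of Pde9a differ from that annotation (2834 bases deposited, 3538 in M21). Pde1a (ENSMUSG00000059173, chr2:79834453-80129458, -), another calmodulin-dependent enzyme, had 0.03 ± 0.43, and its standard error was the widest of the 10. Its libraries spread from 35.4 to 118 CPM in WT and from 32.0 to 152 CPM in Q175.

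**Figure D2:**
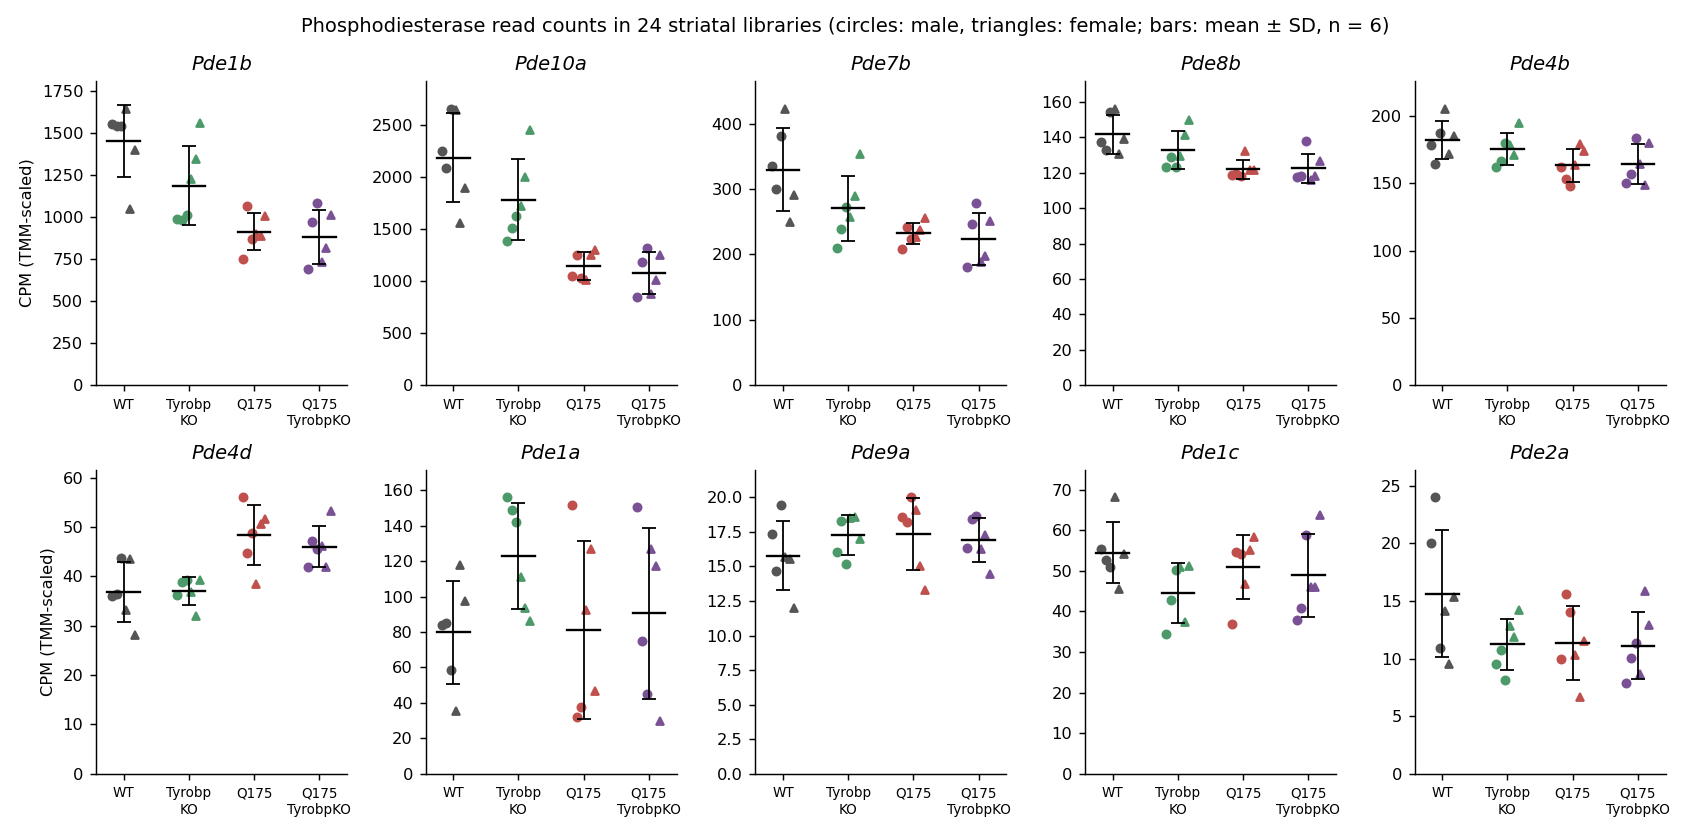
TMM-scaled CPM of the 10 members in each of 24 libraries by genotype (circles male, triangles female), with mean and SD of 6. The Q175 libraries of Pde10a (1008 to 1299 CPM) lie below all WT libraries (1565 to 2661 CPM), while those of Pde1a spread from 35.4 to 118 CPM in WT and from 32.0 to 152 CPM in Q175.

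Calls were lost as follows when libraries were left out. Without WT replicate 4, Pde7b (edgeR adjusted p = 0.0558) and Pde8b (0.0637) no longer passed, and without WT replicate 3, Pde8b did not (0.0667). Without Q175 replicate 3, the library with the high choroid plexus markers, the same 5 members passed. In the males alone, 3 a genotype, Pde10a, Pde1b, Pde7b and Pde4d passed. In the females alone none of the 10 passed edgeR's adjusted threshold while 4 had an unadjusted p under 0.05. The share of all genes with such a p was not counted there. In these females the log2 fold change of Pde10a was -0.78 ± 0.21 (edgeR adjusted p = 0.124). The difference of this Q175 effect between the sexes, females minus males, was 0.29 ± 0.27 (log2) for Pde10a. No member passed that test (edgeR, 0 of 10; 0% of genes tested), and none had an unadjusted p under 0.05 there or in the test averaged over both Tyrobp genotypes, which 0% of genes tested passed. WT replicate 3, which shares the Q175 animals' prefix, had 2661 CPM of Pde10a, 1539.9 of Pde1b, 381 of Pde7b and 154 of Pde8b, each above all Q175 libraries. Its 43.7 CPM of Pde4d lay inside the Q175 range.

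In Q175_TyrobpKO against TyrobpKO, the comparison of the Q175 allele in animals without Tyrobp, 2 members passed. Pde10a was lower (1 of 10, against 3.08% of genes tested) and Pde4d was higher (1 of 10, against 2.78%). The median log2 fold change was -0.11 over the members and -0.0019 over all genes. This comparison shares no library with Q175 against WT, and all its animals carry the same label prefix.

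Pde10a had 1385 CPM in its lowest TyrobpKO library, 1677 at the median and 2457.5 at the highest. With Q175 added it had 845, 1095 and 1321.5 CPM. The groups did not overlap, which 2.27% of genes tested showed in the lower direction. Pde10a fell by 39.2% (log2 fold change -0.72 ± 0.15, edgeR adjusted p = 0.00490). Pde4d ran from 32.0 through 37.8 to 39.3 CPM in TyrobpKO and from 41.8 through 45.8 to 53.3 CPM in Q175_TyrobpKO. Again no library overlapped, as for 2.22% of genes in the higher direction, and Pde4d rose by 0.31 ± 0.09 in log2 units, at an edgeR adjusted p of 0.0422.

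The Pde4d call lay close to the threshold. It was lost when TyrobpKO replicate 1, 2, 3, 4 or 5 or Q175_TyrobpKO replicate 2, 3, 4 or 6 was left out (edgeR adjusted p = 0.0528 to 0.124), while its log2 fold change stayed between 0.26 and 0.35. Pde1b ranged from 984 to 1563 CPM in TyrobpKO and from 689 to 1083 in Q175_TyrobpKO, and 4 of its 6 Q175_TyrobpKO libraries lay below all of TyrobpKO. It had a log2 fold change of -0.42 ± 0.13 and missed the threshold (edgeR adjusted p = 0.0688), but passed in DESeq2 (0.0171), without WT replicate 5 (edgeR, 0.0452) and without Q175_TyrobpKO replicate 3 (edgeR, 0.0340).

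Pde7b (log2 fold change -0.27 ± 0.13, edgeR adjusted p = 0.275) and Pde8b (-0.12 ± 0.06, adjusted p = 0.288) did not pass. Their libraries ranged from 211 to 354 CPM in TyrobpKO and 181 to 278 in Q175_TyrobpKO for Pde7b, and from 123 to 150.1 and 116 to 138 CPM for Pde8b. Pde4b had -0.10 ± 0.06, Pde1a -0.43 ± 0.43, Pde1c 0.13 ± 0.13, Pde2a -0.01 ± 0.23 and Pde9a -0.04 ± 0.10 as log2 fold change, and none of these passed.

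By sex, Pde10a had a log2 fold change of -0.98 ± 0.21 in the females (edgeR adjusted p = 0.0464) and -0.43 ± 0.14 in the males (adjusted p = 0.245). No member passed in the males alone, where 2 had an unadjusted p under 0.05 and the share of all genes with one was not counted. The difference of the Q175 effect between the sexes, females minus males, was -0.54 ± 0.27 for Pde10a and -0.57 ± 0.23 for Pde1b. No member passed the test of that difference (edgeR, 0 of 10; 0% of genes tested). One member, Pde1b, had an unadjusted p under 0.05 (adjusted p = 0.960), as did 4.24% of genes tested. In TyrobpKO the 3 male libraries had 1385 to 1632 CPM of Pde10a and the 3 female libraries 1722 to 2457.5, while their cortical marker sums were 896 to 1163 and 574 to 738 CPM. The difference by sex within TyrobpKO, and the part of the cortical markers in it, was not tested.

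**Figure D3:**
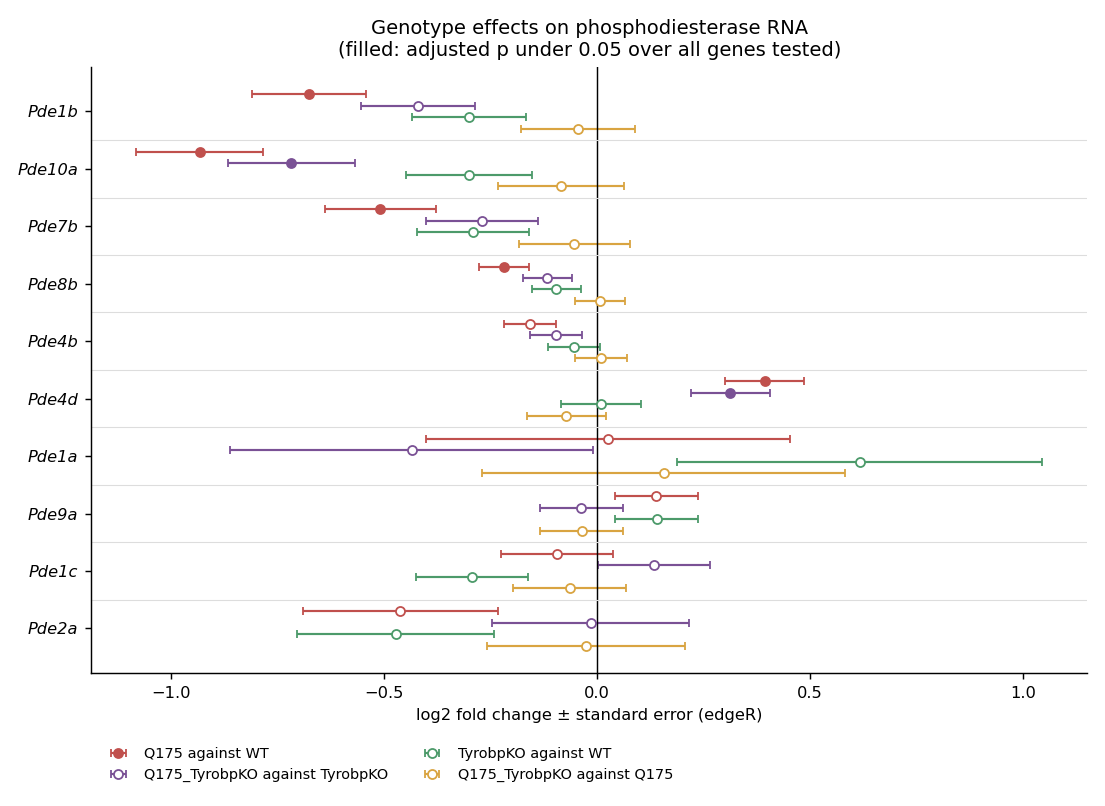
Log2 fold change with standard error of each member in 4 genotype comparisons (edgeR); filled points passed an adjusted p under 0.05 over all genes. Pde10a and Pde4d are filled in both Q175 comparisons, at -0.93 and -0.72 and at 0.39 and 0.31.

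Whether the Q175 effect depended on Tyrobp was tested as an interaction. None of the 10 members passed (edgeR; 0% of the 19667 genes did), and none had an unadjusted p under 0.05, in edgeR or in DESeq2. The difference between the Q175 effects, without Tyrobp minus with it, was 0.21 ± 0.21 (log2) for Pde10a, 0.26 ± 0.19 for Pde1b, 0.24 ± 0.18 for Pde7b, 0.10 ± 0.08 for Pde8b and -0.08 ± 0.13 for Pde4d. Pde1b, Pde7b and Pde8b, called in just one of the Q175 comparisons, were therefore not shown to differ between them. In the males alone 4 members had an unadjusted p under 0.05 in edgeR and none passed: Pde10a had a difference of 0.64 ± 0.20, Pde1b 0.67 ± 0.21, Pde7b 0.56 ± 0.20 and Pde8b 0.25 ± 0.11 (adjusted p = 0.670 to 0.732). The share of all genes with such a p was not counted there. These 4 members also moved together over all libraries (Pearson's r = 0.70 to 0.96 after removal of genotype means), so they are not separate results. In the females alone 0 of 10 had an unadjusted p under 0.05, and Pde10a had -0.20 ± 0.29. Whether the interaction itself differed between the sexes was not tested.

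Loss of Tyrobp alone, TyrobpKO against WT, moved no member past the threshold (0 of 10 in edgeR and in DESeq2; 0.117% of genes tested passed in edgeR). At an unadjusted p under 0.05 there were 3 in edgeR, Pde1b, Pde7b and Pde1c, and 5 in DESeq2, while 1269 of the 19667 genes (6.45%) had one in edgeR. The members' count was 0 without WT replicate 1 or 4 or TyrobpKO replicate 1 or 2, and 6 without WT replicate 5 or TyrobpKO replicate 6. Pde10a had a log2 fold change of -0.30 ± 0.15, Pde1b -0.30 ± 0.13, Pde7b -0.29 ± 0.13, Pde1c -0.29 ± 0.13 and Pde2a -0.47 ± 0.23. All 5 had the same edgeR adjusted p of 0.749. Pde1a had 0.62 ± 0.43, with 86.1 to 156 CPM in TyrobpKO against 35.4 to 118 in WT. Beside these values, the 20 projection neuron markers had a median of -0.27 with 0 called and the 12 cortical markers a median of 0.75 with 0 called; with the mean log2 CPM of the cortical markers as a term in the fit, Pde10a had -0.16 ± 0.12 and Pde1a 0.12 ± 0.12.

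Loss of Tyrobp in Q175 animals, Q175_TyrobpKO against Q175, also called no member (0 of 10 in edgeR and in DESeq2, against 0.158% of genes tested in edgeR), and none had an unadjusted p under 0.05 in either. The differences were small for 9 members, from -0.09 ± 0.15 for Pde10a to 0.01 ± 0.06 for Pde4b on the log2 scale, and 0.16 ± 0.43 for Pde1a. For Pde10a the Q175_TyrobpKO libraries (845 to 1321.5 CPM) enclosed all the Q175 libraries (1008 to 1299 CPM). This comparison shares its Q175 libraries with Q175 against WT. Between females and males over all genotypes, again 0 of 10 members passed in edgeR and in DESeq2 (0.0814% of genes tested passed in edgeR), and none reached an unadjusted p under 0.05.

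Members differed in how they followed the cortical marker sum. After removal of each genotype's mean, log2 CPM of Pde1a rose with the log2 marker sum over the 24 libraries (Pearson's r = 0.98, Spearman's rho = 0.97, 2-sided permutation p = 1e-05 for each, the smallest that 100000 permutations within genotypes can give, adjusted p = 5e-05 over 10 relations). Without the 2 libraries farthest from the median r was 0.972, and within genotypes it lay between 0.970 and 0.995. Pde1a is also expressed in cortical and hippocampal neurons. Pde10a had the opposite sign (r = -0.70, permutation p = 0.00018; rho = -0.75, permutation p = 8.00e-05; adjusted p = 0.00044 and 0.0002; r = -0.67 without the 2 farthest libraries). Its r was -0.89 in WT, -0.93 in TyrobpKO, -0.89 in Q175_TyrobpKO and -0.31 in Q175.

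Pde1b and Pde7b (r = -0.75 for each), Pde1c (-0.72) and Pde8b (-0.51) also fell with the markers (permutation test, adjusted p = 0.000167, 5e-05, 0.00044 and 0.0156). For Pde8b the sign differed by genotype, from -0.93 in WT to 0.39 in Q175. Pde2a, Pde4b, Pde4d and Pde9a did not pass. Pde4d had r = -0.08 over all libraries, with -0.86 in Q175_TyrobpKO and 0.13 (Q175), 0.17 (WT) and 0.26 (TyrobpKO) elsewhere. Pde4b had r = -0.43, with -0.87 in WT, -0.76 in TyrobpKO, -0.82 in Q175_TyrobpKO and 0.53 in Q175. WT replicate 5 had both the highest cortical sum and the lowest Pde10a, Pde1b and Pde7b of its genotype.

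**Figure D4:**
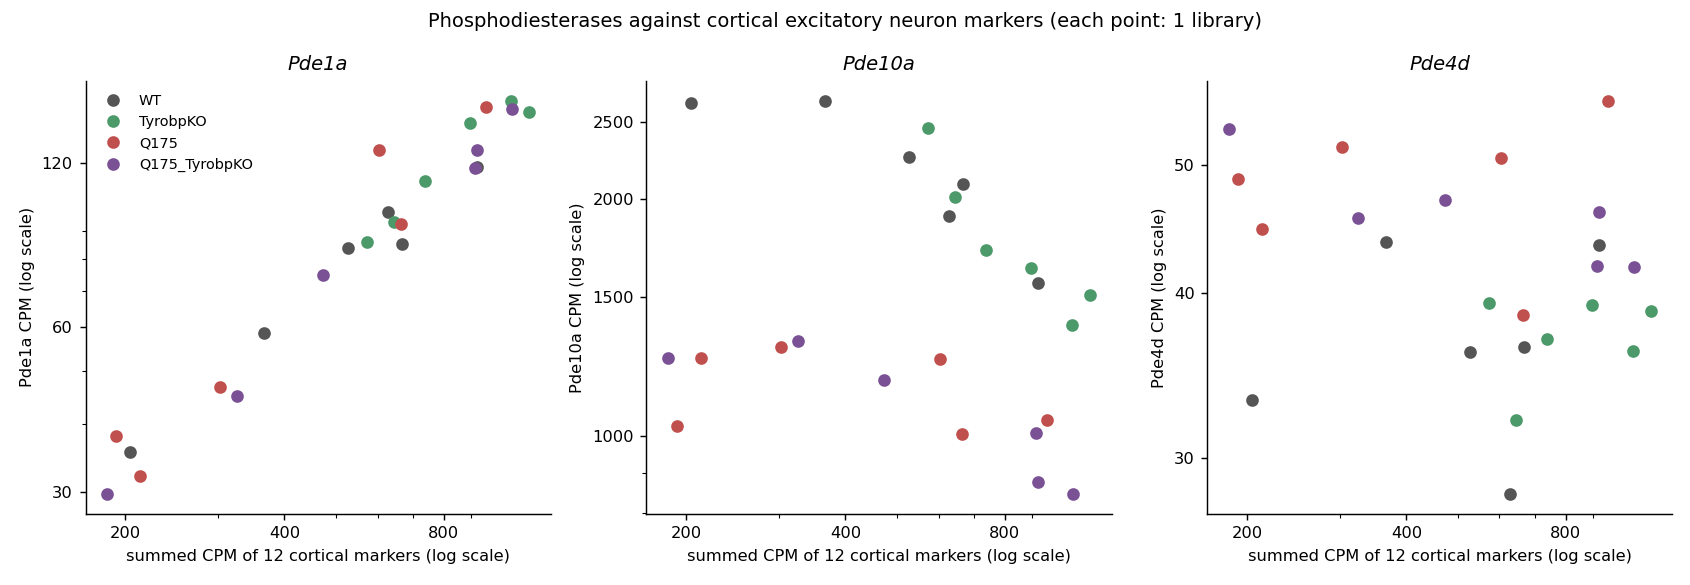
CPM of Pde1a, Pde10a and Pde4d against the summed CPM of 12 cortical markers, log axes, 1 point per library, coloured by genotype. Pde1a lies along a rising line in all genotypes (r = 0.98), Pde10a falls with the markers (r = -0.70) with Q175 carriers below the others, and Pde4d had r = -0.08 over all libraries and -0.86 within Q175_TyrobpKO.

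Of the cortical marker list itself, 0 of 12 genes passed in Q175 against WT and the median log2 fold change was -0.11. In Q175_TyrobpKO against TyrobpKO 0 of 12 passed as well, with a median of -0.29. The mean log2 CPM of the markers, chosen after the data were seen, was added to the fit as a covariate. With it the Q175 effect on Pde10a was -0.96 ± 0.12 where Tyrobp was present and -0.83 ± 0.12 where it was absent. In the first comparison Pde4b joined the 5 called members (edgeR adjusted p = 0.0487). In the second, Pde1b (-0.53 ± 0.10, edgeR adjusted p = 0.00132) and Pde7b (-0.38 ± 0.10, adjusted p = 0.0191) joined Pde10a and Pde4d. Calls over all genes rose with this term too, from 1893 to 2599 in the first comparison and from 1153 to 1607 in the second. The gain in calls was therefore not particular to the members.

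Other genes of projection neurons were lower in the same comparisons. Of the 20 projection neuron markers, 14 were lower and 0 higher in Q175 against WT, with a median log2 fold change of -0.59, and 6 were lower and 0 higher in Q175_TyrobpKO against TyrobpKO, with a median of -0.42. None of the 20 was a member. Of 12 interneuron markers 0 passed in either comparison, and of 12 microglial markers 0 passed. Markers of thalamus, septum and pallidum were lower in 1 of 10 and 0 of 10. Astrocyte markers were lower in 2 of 10 and 3 of 10, oligodendrocyte markers in 0 of 10 and 3 of 10, and endothelial markers in 1 of 10 and 4 of 10. Choroid plexus markers were higher in 3 of 10 in Q175 against WT. The part of these lists in the member results was not tested.

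After removal of genotype means, Pde10a and Pde7b had r = 0.96, Pde10a and Pde1b 0.91, and Pde1b and Pde7b 0.88 over the 24 libraries. Pde8b followed them at 0.70 to 0.80. Pde4b had 0.72 with Pde7b, 0.69 with Pde8b and 0.66 with Pde10a, and Pde1c had 0.60 to 0.66 with Pde10a, Pde1b, Pde4b and Pde7b. Pde1a ran opposite to Pde10a, Pde7b and Pde1b at -0.67 to -0.75, and Pde4d stayed between -0.26 and 0.16 with every other member. These correlations are descriptive, since genes of a library share its dissection and its depth.

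**Figure D5:**
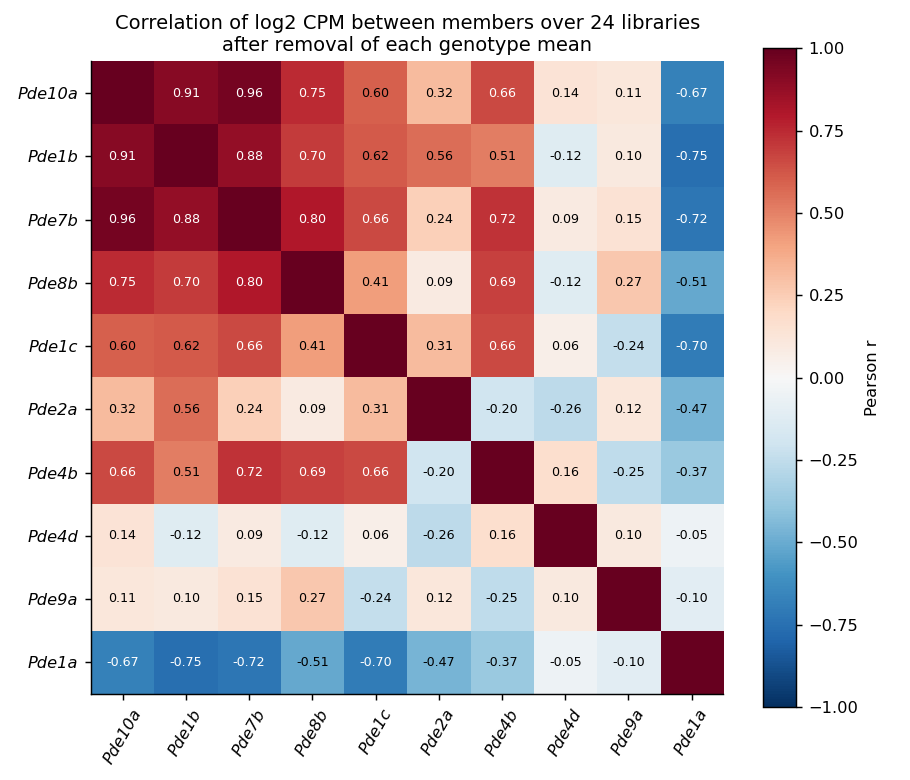
Pearson's r of log2 CPM for each pair of members over 24 libraries after removal of genotype means, from blue (-1) to red (1). Pde10a, Pde1b and Pde7b form a red block (0.88 to 0.96), and the row of Pde1a is blue against them.

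The genes most like each member by the same measure, among all genes tested, were Strn (0.98), Gnal (0.97) and Pde7b (0.96) for Pde10a. Adcy5 led for Pde1b (0.99), Thsd7a for Pde7b (0.97) and Olfm1 for Pde1a (0.99). For the remaining members the best match was weaker, with Gm2415 for Pde2a (0.92), Rasgef1b for Pde8b (0.86), Strip2 for Pde1c (0.85), Ube2e3 for Pde4b (0.85), Cdk12 for Pde4d (0.80) and S100a11 for Pde9a (0.74).

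Among the 12 other phosphodiesterases tested, none passed in Q175 against WT, and 1, the cAMP-specific Pde8a, was lower in Q175_TyrobpKO against TyrobpKO (against 3.08% of genes tested). Pde8a had 48.4 to 62.3 CPM in TyrobpKO and 40.7 to 48.0 CPM in Q175_TyrobpKO, without overlap, as for 2.27% of genes in the lower direction. Its log2 fold change was -0.37 ± 0.08 (edgeR adjusted p = 0.00490), and in Q175 against WT it was -0.19 ± 0.08 (adjusted p = 0.136). The median of the 12 was 0.01 in the first comparison and -0.02 in the second.

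Of 26 genes that make cyclic nucleotides or couple receptors to that step, 23 were tested. In Q175 against WT, Adcy5, the main striatal adenylyl cyclase, fell (log2 fold change -0.78 ± 0.13, edgeR adjusted p = 0.0005), as did Adcy9 (-0.29 ± 0.08, adjusted p = 0.0249). Npr2, a receptor guanylyl cyclase, rose (0.42 ± 0.06, adjusted p = 7e-05). No other gene of the list passed, and its median was -0.09. With 1 of 23 higher and 2 lower, the list was near the shares of all genes tested (4.15% and 5.47%). In Q175_TyrobpKO against TyrobpKO, Npr2 (0.42 ± 0.06) and Adcy5 (-0.45 ± 0.13) passed alone, where 2.78% of genes tested were higher and 3.08% lower. Adcy5 and Gnal are also on the projection neuron list, and Nos1 on the interneuron list.

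Of 34 effectors of cyclic nucleotides, 30 were tested, and in Q175 against WT 2 were higher and 4 lower, with a median of 0.02. Over all genes tested 4.15% were higher and 5.47% lower. Ppp1r1b (DARPP-32), the protein kinase A target that is itself a projection neuron marker, fell by 0.74 in log2 units, at an edgeR adjusted p of 0.00382. Crem, a cAMP-responsive transcription factor, fell by 0.37 (adjusted p = 0.00189). Prkar2a, a regulatory subunit of protein kinase A, rose by 0.28 (adjusted p = 0.0122), and the kinase inhibitor Pkia by 0.21 (adjusted p = 0.0327). In Q175_TyrobpKO against TyrobpKO 3 effectors were higher and 1 lower, against 2.78% and 3.08% of genes tested.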

How the data were processed

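RNA was sequenced from 24 mouse striata, 1 library per animal. The authors deposited raw read counts per gene, whole numbers with no normalization, for 54532 genes. STAR, featureCounts and DESeq2 are named without role or version in the submitters' processing notes, as is the build GRCh38, a human assembly. Of the deposited mouse identifiers, 54495 were found in GENCODE M21 (GRCm38) and 98.17% of those had the same span. The use of strand is not given in the sources used here. All 24 columns were mapped by title to genotype and sex. Replicate numbers follow accession order and pair nothing.

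Counts were tested with edgeR 4.0.16 in R 4.3.3 (quasi-likelihood, robust; TMM scaling; filterByExpr on genotype), with a mean per genotype and a sex term over all 24 libraries. The interaction of Q175 and sex came from a model of the genotype-by-sex means, averaged over Tyrobp genotypes and, added after the data were seen, within each. Calls used a Benjamini-Hochberg adjusted p under 0.05 over 19667 genes. Standard errors were derived from the test statistic. Correlations used log2 CPM with a prior count of 2. Levels per kilobase used the deposited gene length. The fit was tested on simulated data. No pair of libraries of the same genotype agreed within sampling noise (mean chi-square per gene at least 6.89). Alternatives were DESeq2 1.42.0, 2 other scalings, no filter, no sex term, each sex alone, only the 12 libraries compared, each library left out and, added after the data were seen, a cortical marker term.

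The members and gene lists were chosen with earlier results of these data known. Named were all members, each other phosphodiesterase called in a Q175 comparison, and the 2 higher and 2 lower called genes of smallest p in Q175 against WT from the cyclase and effector lists. Also named were the 1 gene most like each member (3 for Pde10a) and at most 2 genes of each marker list.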

Additional observations from a re-analysis of the deposited data

Results flagged for a closer look

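Pde8b in Q175 replicate 4 was at 132 CPM, while the other 5 Q175 libraries lay between 118 and 122 CPM. Its gap to the next library, as a share of the range of the 6, exceeded Dixon's 95% critical value for 6 values. It was the only such library in the 40 groups examined (10 members in 4 genotypes), where chance gives about 1 in 20.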

How the results depend on the processing

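Members called in Q175 against WT numbered 5 in the full fit and 0 in females alone; with any 1 library left out the number lay between 3 and 5. In Q175_TyrobpKO against TyrobpKO it was 2, and 0 in males alone, 1 in females alone, 4 with the cortical marker term, and between 1 and 3 with any 1 library left out. Single-sex fits rest on 3 animals a genotype. They also called fewer genes in all, 759 (males) and 187 (females) against 1893 in the first comparison and 104 and 290 against 1153 in the second. No called value changed sign under any alternative. Of the 440 log2 fold changes of members under the alternatives other than leaving out libraries, 430 stayed on their side of the threshold, 9 lost it and 1 gained it. Most of the 440 were not called in the full fit and had no call to lose. All 9 losses were in the single-sex fits. Of 1440 with a library left out, 1426 stayed, 12 lost it and 2 gained it. Most of these 1440 also had no call to lose. With the cortical marker term 47 of 50 stayed and 3 gained it. That term also called more genes in all, 2599 in the first comparison and 1607 in the second. The cause of these changes was not tested. Depth was not limiting for the members: the lowest single count was 181 reads, for Pde2a. No paired analysis was possible because the labels give no replicate numbers that the genotypes share.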
